A study of Mus musculus with 3 samples.

Results

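The 37 genes described here are expressed in macrophages and other leukocytes and were listed by name; all 37 are represented on the array, among 18194 genes in all. They were measured in primary cultures of mouse ocular pigment epithelium, with 1 array each for the ciliary body (CBPE), the retina (RPE) and the iris (IPE). Donors of every culture were C57BL/6 mice aged 6 to 8 weeks, with no further genotype or treatment given. CBPE and IPE were grown in RPMI 1640 with 10% fetal bovine serum and RPE in DMEM with 20%, and all 3 spent the last night in medium without serum. In comparisons with RPE the effects of medium and tissue cannot be told apart. CBPE and IPE tissue was released with Dispase and DNase I and the RPE with trypsin. How many donors were pooled and how often cells were passaged is not stated in the labels. By the labels, above 95% of CBPE and RPE cells were cytokeratin positive after 14 days, and above 99% of IPE cells, for which no culture time is given. The study asked about thrombospondin-1 and how T cells respond to these epithelia, as its title says.

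Macrophages and other leukocytes arise from bone marrow or fetal precursors, not from the neuroectoderm that forms the pigment epithelia, and they reside in the iris, ciliary body and choroid. Macrophages depend on signalling through the receptor Csf1r and on the transcription factor PU.1, encoded by Spi1. They carry Fc and scavenger receptors, several of which signal through the adaptors Tyrobp and Fcer1g, and they degrade what they take up in lysosomes with lysozyme and cathepsins. None of these genes defines a pigment epithelial cell.

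Each value is the deposited signal of 1 array, a linear intensity. A signal is called above the floor when it exceeds the median of the non-control probe sets of its own array, which was 17.3 in CBPE, 16.8 in RPE and 14.5 in IPE. The brightest control for a bacterial transcript that no sample contains was at 20.2 in CBPE, 16.6 in RPE and 7.9 in IPE, so CBPE signals just over the floor are not separated from background. The probe set brightest on average (mean log2 signal) stands for its gene, signals under the floor are set to it, and a ratio to a signal under the floor is written as at least that size. A gene counts as higher or lower from a 2-fold difference, provided that either array is above its floor. With 1 array per culture there is no replicate error and no test of any difference, and the number of arrays limits the precision. The only measurable error was the disagreement between probe sets of 1 gene, and it was measured only for signals above 100. For log2 differences its pooled SD was 0.29 for CBPE minus RPE (1694 genes) and 0.50 for CBPE minus IPE (1667 genes). For RPE minus IPE it was 0.46 (1774 genes). Of the listed genes, 13 were above 100 in CBPE, 5 in RPE and 4 in IPE, so these SDs do not describe the error of most of them.

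The arrays also differed in control signals. Added hybridisation controls had a geometric mean of 3192 in CBPE, 1941 in RPE and 1239 in IPE after the common scaling. A probe set at the 5′ end of 18S rRNA was at 274.3, 27.7 and 17.6, and the 3′ to 5′ ratio of Gapdh was 1.23, 1.25 and 0.940. The pigment genes Tyr and Dct, markers of the labelled cells, were at 384.4 and 2 in CBPE, 493.3 and 286.5 in RPE, and 1113.6 and 1429.1 in IPE, so Dct was under the floor in CBPE. Of the keratins of simple epithelia, Krt18 was at 422.4 in CBPE, 218.6 in RPE and 144.1 in IPE, and Krt8 at 95.3, 26.2 and 17.4. Krt19 was instead brightest in IPE, at 25.8, 2.2 and 39.9, and Krt7 was above the floor in RPE alone, at 17, 21.9 and 2.9.

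Lysozyme, Fc receptor adaptor and most lysosomal genes were at their highest in the CBPE culture. Of the 37 genes, 17 had a CBPE signal 2-fold or more above RPE and none was lower, against 3.01% of all genes higher and 2.65% lower. In CBPE against IPE, 19 were higher and none lower, where 8.32% of all genes were higher and 8.84% lower. Between RPE and IPE, 2 were higher in RPE and 1 lower, against 6.75% and 7.16% of all genes. The median log2 difference over all 37 was 0.92 for CBPE minus RPE, 1.04 for CBPE minus IPE and 0.21 for RPE minus IPE, beside 0.04, 0.25 and 0.21 over all genes. A gene under the floor on both arrays enters these medians with the difference of the floors. Both CBPE comparisons use the same CBPE array. In such bulk samples, fewer cells of a type and less RNA per cell cannot be told apart.

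The number of genes above the floor also differed. In CBPE 26 of the 37 genes were above it (70.3%), beside 65.5% of all genes. The count was 16 in RPE and 13 in IPE, where 64.0% and 63.1% of all genes were above the floor. 11 genes were above the floor on all 3 arrays (56.3% of all genes), 9 in CBPE and neither other culture (4.94%), and 10 on no array (26.6%). Of the 37 genes, 25 were above the floor and highest in CBPE, against 24.2% of all genes. Mpeg1 was the exception among the 26 genes above the CBPE floor. The 9 genes above the floor in CBPE alone count here by definition, because the CBPE floor was the highest. In CBPE, 15 genes exceeded both other cultures by 2-fold or more, as did 1.60% of all genes. Where the arrays were scaled to equal hybridisation controls, 13 genes were higher in CBPE than in RPE and none lower, against 0.621% and 20.0% of all genes. Under that scaling, with a gene counted only where the brighter array was above its own floor, CBPE exceeded IPE in 11 genes and was lower in 1, Mpeg1 (1.09% and 45.4% of all genes). RPE exceeded IPE in none and was lower in Cd68, Ctss and Mpeg1 (1.98% and 21.7% of all genes). With equal medians, 5.19% of all genes were higher and 13.0% lower in CBPE against IPE, and 4.30% and 10.6% in RPE against IPE, while 17 and 2 of the 37 genes were higher and 0 and 1 lower.

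**Figure D1:**
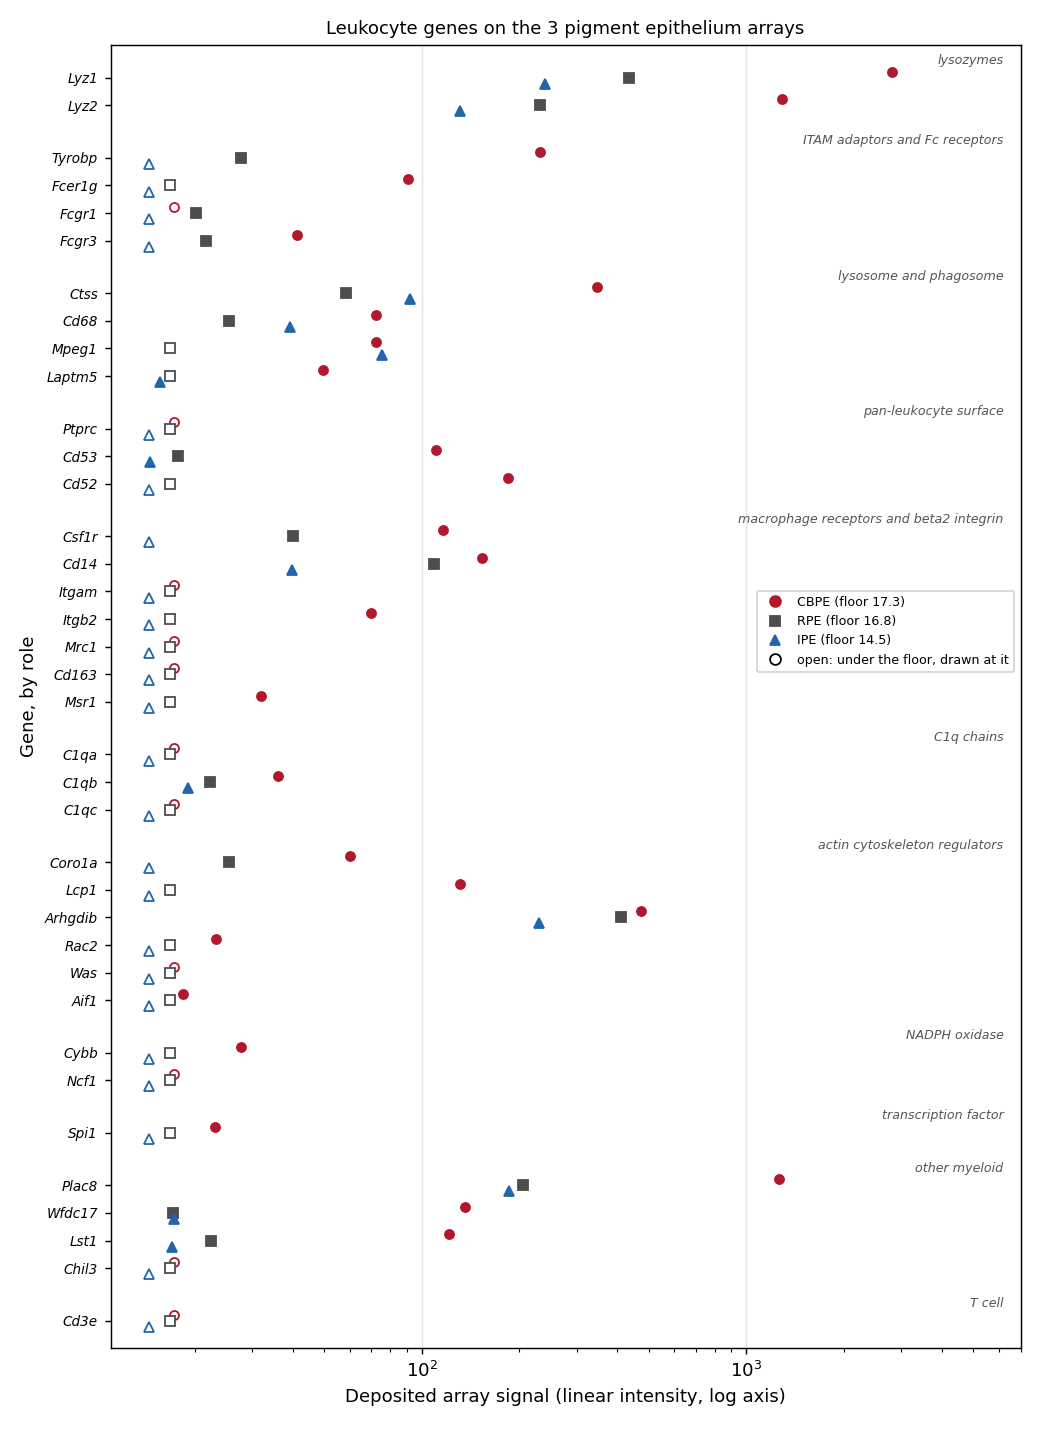
Deposited signal (log axis) of the 37 leukocyte genes, by role, in CBPE (circles), RPE (squares) and IPE (triangles); open symbols are under the floor and drawn at it. CBPE lies to the right for the lysozymes, Tyrobp, Ctss, Cd53, Cd52 and Plac8, while 10 genes have 3 open symbols.

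Both lysozyme genes were brightest in CBPE. Lyz2, the lysozyme of macrophages and other myeloid cells, had a signal of 1288.4 in CBPE, 231.6 in RPE and 130.9 in IPE. Its CBPE signal was 5.56-fold that of RPE and 9.84-fold that of IPE, while RPE and IPE lay within 2-fold of each other. Lyz1, known in mouse as the lysozyme of intestinal Paneth cells, is the adjoining gene on chromosome 10 and a close copy. By its brightest probe set Lyz1 was at 2803.6 in CBPE, 434.9 in RPE and 240.2 in IPE, which is 6.45-fold and 11.7-fold in favour of CBPE. That probe set and another of the same type, at 932.6, 124.5 and 56.5, have names that mark probes able to match several transcripts. The Lyz1 probe set without that mark was under the floor on all 3 arrays, at 7.5 in CBPE, 6.8 in RPE and 1.4 in IPE. The signal assigned to Lyz1 is therefore uncertain between the copies, and its ratios cannot be taken as independent of those of Lyz2. The likeness of the copies can be read from their promoter windows, from 250 bases before the start site to 50 after it, on the minus strand of RefSeq's GRCm38.p6, at chr10:117282223-117282522 for Lyz2 and chr10:117292819-117293118 for Lyz1. In an alignment of 302 columns, 249 were identical (82.5%), and in the last 50 columns, the transcribed end, 49 were. Capitals mark the 51 bases of each window that differ from the other window or have no partner in it:
Lyz2: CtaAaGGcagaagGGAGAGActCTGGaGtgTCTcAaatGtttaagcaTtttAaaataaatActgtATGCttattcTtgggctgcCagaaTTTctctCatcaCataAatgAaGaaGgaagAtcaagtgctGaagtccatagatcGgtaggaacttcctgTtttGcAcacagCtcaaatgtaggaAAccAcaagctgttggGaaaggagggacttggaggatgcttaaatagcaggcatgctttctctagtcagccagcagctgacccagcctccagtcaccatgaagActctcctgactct
Lyz1: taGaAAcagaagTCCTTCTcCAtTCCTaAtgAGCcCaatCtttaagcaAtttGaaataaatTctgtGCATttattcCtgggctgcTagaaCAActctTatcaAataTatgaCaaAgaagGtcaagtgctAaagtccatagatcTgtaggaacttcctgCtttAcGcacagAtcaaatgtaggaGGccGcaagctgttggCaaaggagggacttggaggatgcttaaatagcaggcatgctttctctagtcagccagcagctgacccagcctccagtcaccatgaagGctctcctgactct
Most capitals stand in the upstream part.

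The ITAM adaptors followed the lysozymes. Tyrobp, which encodes the adaptor DAP12 of myeloid and NK cell receptors, was at 230.8 in CBPE, 27.7 in RPE and 14.4 in IPE. CBPE was 8.33-fold above RPE and at least 15.9-fold above IPE, whose signal was under the floor. Fcer1g, the common gamma chain of Fc receptors, was at 90.7 in CBPE, 12.1 in RPE and 2.1 in IPE, so CBPE exceeded RPE by at least 5.40-fold and IPE by at least 6.26-fold. It was thus above the floor in CBPE alone. The Fc receptors themselves were dim. Fcgr3, a low-affinity IgG receptor, was at 41.2 in CBPE, 21.7 in RPE and 0.8 in IPE, 1.90-fold above RPE and at least 2.84-fold above IPE. Fcgr1, the high-affinity IgG receptor, was above the floor in RPE alone, at 1.1 in CBPE, 20.2 in RPE and 1.9 in IPE, and its other probe set was under the floor on all 3 arrays.

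Lysosomal and phagosomal genes were all higher in CBPE than in RPE but not all higher than in IPE. Ctss, the cathepsin that trims the invariant chain of MHC class II, was at 347.2 in CBPE, 58.5 in RPE and 92.3 in IPE, 5.94-fold and 3.76-fold higher in CBPE. Cd68, a lysosomal membrane protein used as a macrophage marker, was at 72.3 in CBPE, 25.5 in RPE and 39.4 in IPE, which is 2.84-fold and 1.84-fold. Mpeg1, the pore-forming perforin-2 of macrophages, set IPE beside CBPE: it was at 72.1 in CBPE, 2.8 in RPE and 75.5 in IPE. CBPE and IPE differed by a factor of 0.955 for Mpeg1, while RPE was at least 4.29-fold below CBPE and at least 4.49-fold below IPE. The Mpeg1 signals lay under 100, where the disagreement between probe sets was not measured. Of the 37 genes, Mpeg1 was the only one that RPE had 2-fold or more below IPE, and Ctss and Cd68 had RPE over IPE ratios of 0.634 and 0.647. Laptm5, a lysosomal protein of blood cells, was at 49.5 in CBPE, 14.4 in RPE and 15.6 in IPE by its brightest probe set. Its 5 probe sets divided: a further one gave 41.8, 9.5 and 10, another placed IPE at 21.9 beside CBPE at 20.7, and the remaining ones were under the floor on all 3 arrays.

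Surface proteins shared by most leukocytes gave a mixed result. Cd53, a tetraspanin, was at 110.4 in CBPE, 17.7 in RPE and 14.6 in IPE, 6.24-fold and 7.56-fold higher in CBPE, with both other signals barely above their floors. Cd52, a small glycosylphosphatidylinositol-anchored protein, was at 184 in CBPE, 16.7 in RPE and 2.1 in IPE, which is at least 10.95-fold over RPE and at least 12.7-fold over IPE. Ptprc, which encodes CD45 and defines leukocytes, was under the floor on all 3 arrays by both probe sets, the brighter giving 13.3 in CBPE, 0.6 in RPE and 2.9 in IPE. The 3 markers given for these cells, Lyz2, Tyrobp and Cd53, were thus above the floor in CBPE and RPE, and Lyz2 and Cd53 also in IPE. CD45 was not detected above it in any culture.

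Macrophage surface receptors divided between detected and undetected genes. Csf1r, the receptor for the growth factors Csf1 and Il34, was at 116 in CBPE, 40 in RPE and 13.9 in IPE by its brightest probe set, 2.90-fold above RPE and at least 8.00-fold above IPE. Its other probe sets gave 41.6, 25.9 and 1.7, and 45.4, 41.4 and 30.4, so all 3 had the order CBPE, RPE, IPE with differing sizes. Averaged over its probe sets, Csf1r was no longer at least 2-fold different between CBPE and RPE or between RPE and IPE. Cd14, the lipopolysaccharide co-receptor, was at 152.9 in CBPE, 109 in RPE and 39.9 in IPE. It was 1.40-fold higher in CBPE than in RPE and 3.83-fold higher than in IPE. Csf1r and Cd14 were the 2 genes that RPE had past 2-fold above IPE, by at least 2.76-fold and by 2.73-fold, and neither was past 2-fold there with equal hybridisation controls. Itgb2, the beta chain of leukocyte integrins, was at 69.6 in CBPE, 11.4 in RPE and 3.6 in IPE, which is at least 4.14-fold over RPE and at least 4.80-fold over IPE. Its partner Itgam, the alpha chain of the complement receptor Mac-1, was under the floor on all 3 arrays. So were the mannose receptor gene Mrc1, at 10.6, 10.4 and 10.5, and the haemoglobin scavenger receptor gene Cd163, at 2.8, 2.8 and 0.2, both known from resident tissue macrophages. The class A scavenger receptor gene Msr1 exceeded the floor only in CBPE, at 32.1 against 13.8 in RPE and 2.8 in IPE. Its ratio was at least 1.91 over RPE and at least 2.21 over IPE. With equal hybridisation controls the lower bound against IPE was -0.22 on the log2 scale, from which no direction follows. The other 3 probe sets of Msr1 were under the floor on all 3 arrays, as was the other probe set of Cd53.

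Of the complement C1q chains, which tissue macrophages secrete, none was past 2-fold in any comparison. C1qb was at 36 in CBPE, 22.3 in RPE and 19 in IPE, and its other probe sets were above the floor in CBPE alone, at 24.2 and 20.4. C1qa and C1qc, at 3.1 and 12 in CBPE, were under the floor on every array. The NADPH oxidase genes, which make the phagocyte oxidative burst, were close to the floor or under it. Cybb, the catalytic subunit, was at 27.7 in CBPE, 4.9 in RPE and 7 in IPE, with its 3 probe sets above the floor in CBPE alone, and the cytosolic subunit gene Ncf1 was under it throughout.

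Regulators of the actin cytoskeleton were split by gene. Lcp1, the actin-bundling L-plastin, was at 130.8 in CBPE, 4.8 in RPE and 12.8 in IPE, which is at least 7.79-fold over RPE and at least 9.02-fold over IPE. A fainter Lcp1 probe set gave 35.2, 2.1 and 5.4, also above the floor in CBPE alone. Coro1a, a leukocyte coronin, was at 60.2 in CBPE, 25.5 in RPE and 11.6 in IPE, 2.36-fold and at least 4.15-fold higher in CBPE. Arhgdib, a GDP dissociation inhibitor of blood cells that other cell types also express, behaved differently. It was at 472.9 in CBPE, 410.9 in RPE and 229.7 in IPE, 1.15-fold above RPE and 2.06-fold above IPE, and the log2 difference to IPE turned to -0.32 with equal hybridisation controls. Rac2, the haematopoietic Rac GTPase, was at 23.3 in CBPE, 13.6 in RPE and 9.2 in IPE, and Aif1, the calcium-binding protein Iba1 of macrophages and microglia, was at 18.4, 1.8 and 2.5. The Aif1 signal in CBPE was under the 20.2 of the absent bacterial controls. Was, the Wiskott-Aldrich syndrome protein gene, was under the floor on all 3 arrays.

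Other myeloid genes repeated the pattern of the lysozymes. Plac8, a small cysteine-rich protein of myeloid and lymphoid cells, was at 1259.7 in CBPE, 205.7 in RPE and 185.9 in IPE, 6.12-fold and 6.78-fold higher in CBPE. Wfdc17, a secreted protein of activated mouse macrophages, was at 135.6 in CBPE, 17.1 in RPE and 17.3 in IPE, which is 7.93-fold and 7.84-fold. For Lst1, a small myeloid transmembrane protein, the signals were 121.3 in CBPE, 22.4 in RPE and 17 in IPE, which is 5.42-fold and 7.14-fold. Chil3, a chitinase-like protein of alternatively activated mouse macrophages, stayed under the floor on all 3 arrays, as did the T cell receptor component Cd3e, at 5.3 in CBPE, 13.9 in RPE and 5.1 in IPE.

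The sizes of the CBPE over RPE ratios could be set side by side. In the 15 genes measured above both floors, which leaves out those seen in 1 culture alone, 8 had ratios between 5 and 10, 3 between 2 and 5 and 4 under 2, from 1.15 for Arhgdib to 8.33 for Tyrobp. The 4 under 2 were Arhgdib, Cd14, C1qb and Fcgr3. Among all 10704 genes above both floors, 381 were 2-fold or more higher in CBPE than in RPE and 384 lower. For RPE over IPE, 10 of the 11 ratios were under 2, from 0.634 for Ctss to 2.73 for Cd14. Among all 10670 genes above the RPE and IPE floors, 1017 were 2-fold or more higher in RPE and 1139 lower, so most lay within 2-fold too. Of the 11 genes above all 3 floors, 8 had the order CBPE, RPE, IPE and 3 the order CBPE, IPE, RPE, namely Ctss, Cd68 and Wfdc17, the last by 17.3 against 17.1. The share of each order among all genes was not computed, so these counts describe the 11 only. The summed signal of all 37 genes was 8064.7 in CBPE, 1852.5 in RPE and 1256.6 in IPE. Leaving out Lyz1, Lyz2 and Plac8, it was 2713, 980.3 and 699.6.

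**Figure D2:**
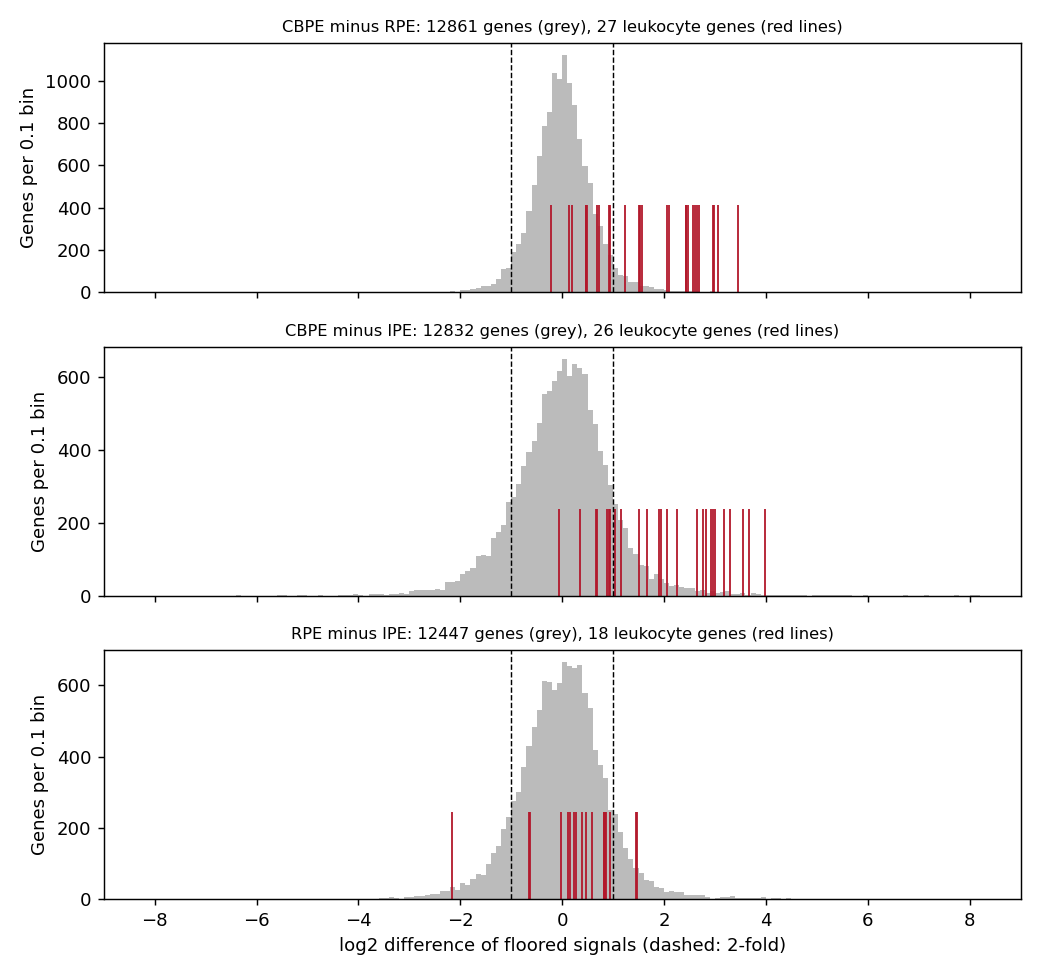
Distribution of log2 differences between floored signals for all genes with either array above its floor (grey), with the leukocyte genes that met the same condition as red lines; dashed lines mark 2-fold. In both CBPE panels the red lines lie mostly at the right edge of the grey distribution (17 and 19 past 2-fold). In RPE minus IPE 15 red lines lie within 2-fold, as do 9916 of the 12447 genes in grey.

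The probe sets of these genes could be read one by one. The 37 genes had 61 probe sets, with 1 for each of 24 genes and several for 13. Of the 61, 37 were above the floor in CBPE, 19 in RPE and 16 in IPE. By the definition of the floor, about 50% of all non-control probe sets lie above it on each array. CBPE was 2-fold or more above RPE in 20 probe sets and above IPE in 23, and it was that far below in none. The share of all probe sets past 2-fold was not computed, so these 2-fold counts describe the 61 only. Of 6 genes higher in CBPE than in RPE that had several probe sets, 5 had another above the floor, and none of these pointed the other way. For Laptm5, Coro1a and Lcp1 none could, since the others were under the floor in RPE, whose floor is the lower. Ratios of the others were 7.49 in Lyz1, at least 2.10 in Lcp1 and at least 2.49 and 1.23 in Laptm5. They were under 2-fold in Csf1r (1.61 and 1.10) and Coro1a (at least 1.54). Against IPE 5 of 7 such genes had another, and Laptm5 was the gene with a probe set that did not point the same way. For Coro1a and Lcp1 none could, since the others were under the floor in IPE, whose floor is also lower than that of CBPE.

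**Figure D3:**
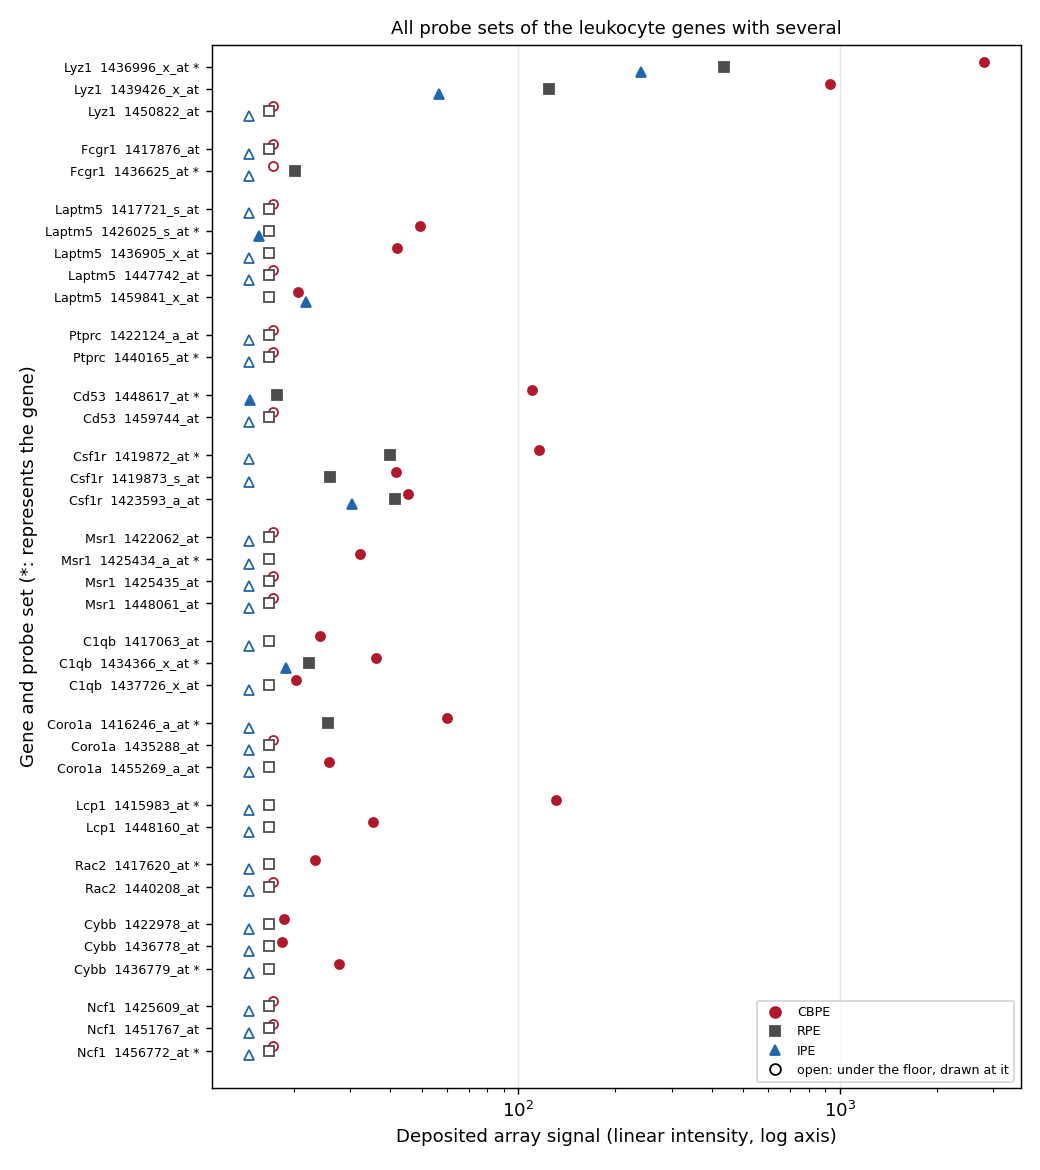
Signal (log axis) of every probe set of the 13 genes with several, in CBPE (circles), RPE (squares) and IPE (triangles); open symbols are under the floor and drawn at it, and an asterisk marks the probe set that represents the gene. One Lyz1 probe set has open symbols in all cultures, while the other 2 reach 2803.6 and 932.6 in CBPE.

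Spi1, the master transcription factor of macrophages, was near the detection limit. Its signal was 23.1 in CBPE, 9.3 in RPE and 11 in IPE, so it was above the floor in CBPE alone, by little more than the 20.2 of the absent controls. Promoter windows of RefSeq's GRCm38.p6 were found for 27 of the 37 genes and were searched on both strands for the PU.1 motif GAGGAAGT and for the core GAGGAA contained in it. The longer motif stood in the windows of Cd53, Ctss and C1qc, 3 of 27 genes, against 3.69% of all genes and 3.20% of all windows. The core stood in 18 of 27, against 31.3% of all genes and 28.3% of all windows. Of the 15 genes 2-fold or more above both others in CBPE, 10 had a window, and of these 2 held the longer motif and 5 the core. The windows of these 2, Ctss and Cd53, are shown because both genes were bright in CBPE, with the motif in capitals as its reverse complement ACTTCCTC. Ctss lies on the plus strand at chr3:95526536-95526835 and Cd53 on the minus strand at chr3:106790100-106790399:
Ctss: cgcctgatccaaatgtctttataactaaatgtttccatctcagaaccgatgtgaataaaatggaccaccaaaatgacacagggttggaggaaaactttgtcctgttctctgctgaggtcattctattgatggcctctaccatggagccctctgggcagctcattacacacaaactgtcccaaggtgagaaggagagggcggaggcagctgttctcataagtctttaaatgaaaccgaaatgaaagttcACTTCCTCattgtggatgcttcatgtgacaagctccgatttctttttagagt
Cd53: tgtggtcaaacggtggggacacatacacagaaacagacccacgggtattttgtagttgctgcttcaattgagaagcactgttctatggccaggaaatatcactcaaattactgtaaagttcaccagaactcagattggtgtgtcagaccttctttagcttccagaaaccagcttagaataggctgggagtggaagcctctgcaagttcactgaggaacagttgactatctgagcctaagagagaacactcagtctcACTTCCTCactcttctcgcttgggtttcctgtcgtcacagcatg
In Ctss the motif spans the start site, and in Cd53 it lies just inside the transcript. A match is a description of these letters and does not show binding.

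Further macrophage and leukocyte genes were listed separately. Of 32 measured further macrophage genes, 8 were past 2-fold higher in CBPE against RPE and 9 against IPE, none lower, and 3 higher in RPE against IPE. Over all genes, 3.01%, 8.32% and 6.75% were higher in the same comparisons. Their median log2 differences were 0.08, 0.29 and 0.21, near those of all genes. Mmp12, the macrophage elastase, was at 618.4 in CBPE, 176.9 in RPE and 78.3 in IPE, 3.50-fold and 7.90-fold higher in CBPE. Clec4d, a C-type lectin receptor of myeloid cells, was at 171.9 in CBPE, 30.5 in RPE and 10.4 in IPE, 5.64-fold and at least 11.9-fold. Tmem119, a microglial marker that bone-forming cells also express, was at 856.2, 562.1 and 178.3, with CBPE and RPE 4.80-fold and 3.15-fold above IPE. Of 32 measured leukocyte signalling genes, 3 were higher in CBPE than in RPE (9.38%) and 4 than in IPE (12.5%), none lower. Over all genes, 3.01% and 8.32% were higher. In CBPE 50% of this list was above the floor, against 65.5% of all genes. Alox5ap, needed for leukotriene synthesis, was at 63.1 in CBPE, 19.1 in RPE and 11.6 in IPE, and Cd72, a B cell co-receptor, at 37.7, 0.7 and 10.7. Apbb1ip, an adaptor of integrin activation, was at 55.6 in CBPE, 22.6 in RPE and 54.1 in IPE.

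The growth factors and attractants of macrophages followed another order. None of the 8 measured was past 2-fold between CBPE and RPE, while against IPE 2 were higher and 1 lower in CBPE, and likewise in RPE. The chemokine gene Ccl7 was at 3106.5 in CBPE, 2999 in RPE and 232.7 in IPE, 13.3-fold and 12.9-fold above IPE, and Ccl2, which recruits monocytes, at 3851.2, 3175.1 and 1248.5, 3.08-fold and 2.54-fold above IPE. Csf3, a granulocyte growth factor, was at 18.6 in CBPE, 6.3 in RPE and 40 in IPE. Csf1, the ligand of Csf1r, is named after its values were seen: it was at 785.7 in CBPE, 812.3 in RPE and 736.9 in IPE, which differ by less than the disagreement between probe sets.

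Markers of other cell types also differed between the cultures. For the counts that follow, 3.01% of all genes were higher and 2.65% lower in CBPE than in RPE, and 8.32% and 8.84% against IPE. Above the floor were 65.5% of all genes in CBPE, 64.0% in RPE and 63.1% in IPE. Of 12 endothelial markers, 11 were above the floor in CBPE, 5 in RPE and 6 in IPE, 7 were past 2-fold higher in CBPE against RPE and 6 against IPE, and none lower. The vascular markers Pecam1 and Cdh5 were at 54.6 and 108.3 in CBPE, 2.4 and 16 in RPE, and 14.2 and 7.8 in IPE. Others did not follow them: Kdr stayed within 2-fold, at 28.6, 22.2 and 18.5, and Eng was brightest in IPE, at 293.2, 240.6 and 362.3. Plvap was at 35.4 in CBPE, 5.8 in RPE and 32.5 in IPE, and Vwf was under the floor on all 3 arrays. The summed signal of the 12 was 2052.9 in CBPE, 630.1 in RPE and 1306.7 in IPE. The largest part in CBPE and IPE was Emcn, endomucin, at 1114.8, 211.2 and 745.1, and without it the sums were 938.1, 418.9 and 561.6. Egfl7, secreted by endothelium, was at 144.3 in CBPE, 68.9 in RPE and 82.8 in IPE, and the angiopoietin receptor gene Tek at 72.9, 52.1 and 9.6. Of 11 pericyte and smooth muscle markers, 2 were higher in CBPE than in RPE and none lower, and against IPE 4 were higher and 2 lower in CBPE. Rgs5, a pericyte marker, was at 3973.5 in CBPE, 1415.9 in RPE and 10.4 in IPE, 2.81-fold above RPE and at least 274.0-fold above IPE. The smooth muscle actin gene Acta2 was at 14299.6, 9768.7 and 5496.4, and the calponin gene Cnn1 at 267.1, 242.9 and 94.4. The 2 lower in CBPE than in IPE were Myh11, at 22.1 in CBPE, 40 in RPE and 99.4 in IPE, and Des, at 28.5, 32.4 and 91.3. Fibroblast markers had 1 of 10 higher in CBPE than in RPE and none lower, and against IPE 5 were higher and 1 lower in CBPE. All 10 were above the floor in every culture, and the collagen genes Col3a1, Col1a2 and Col1a1 were at 13643.8, 12392.2 and 8746.5 in CBPE, 10440.3, 10180.7 and 5603.2 in RPE, and 6251, 4828.2 and 3481.3 in IPE. The 1 lower in CBPE than in IPE was Pdgfra, at 776.6 in CBPE, 958.1 in RPE and 2020.3 in IPE. Of the epithelial junction genes, Tjp1 was at 426.2 in CBPE, 345.8 in RPE and 938.8 in IPE, and Cldn1 at 30.7, 69.9 and 79.3. Of 8 melanin genes, none was higher in CBPE, 3 were lower than in RPE and 7 lower than in IPE. Tyrp1, an enzyme of melanin synthesis, was at 67.2 in CBPE, 550 in RPE and 1387.8 in IPE. The part of these cell types in the result for the leukocyte genes was not tested. Nor was that of the 18S and hybridisation controls, which were highest in CBPE.

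**Figure D4:**
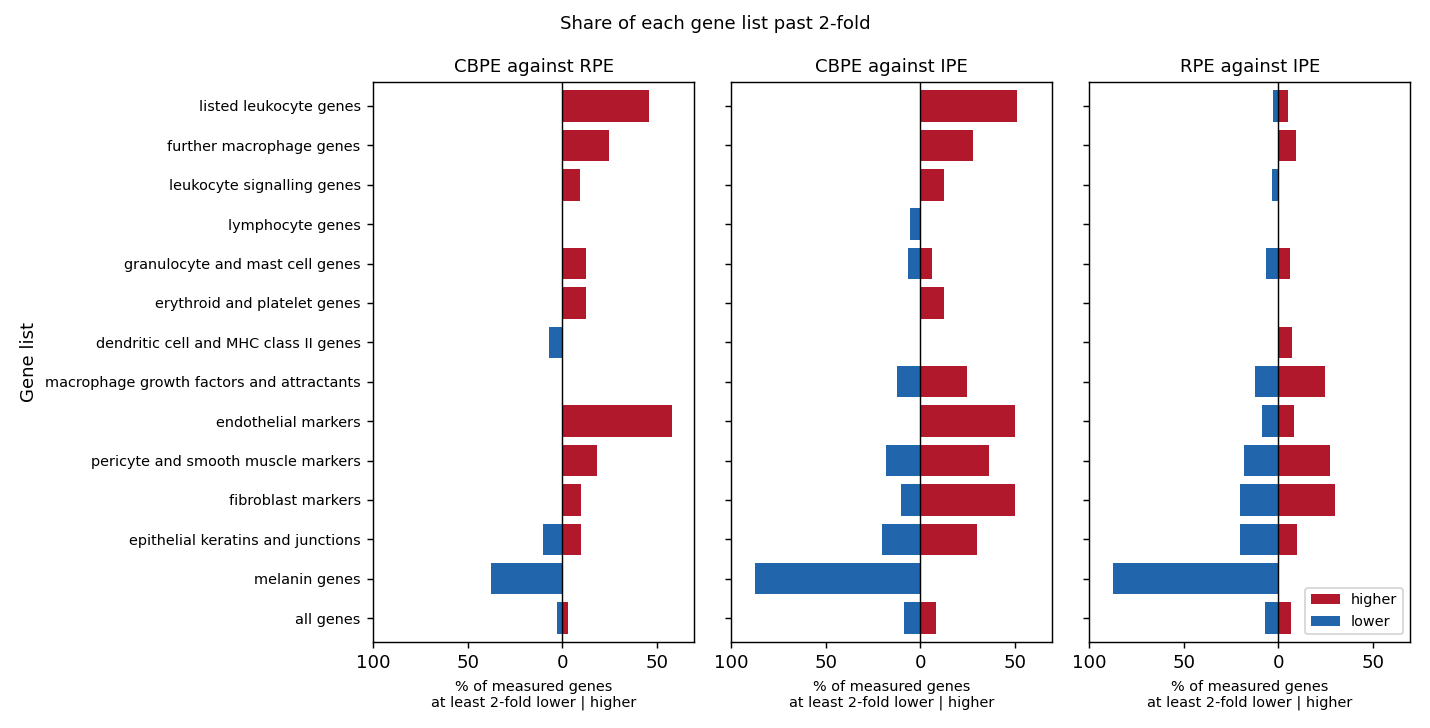
Percent of the measured genes of each list that were past 2-fold higher (red, right) or lower (blue, left) in CBPE against RPE, CBPE against IPE and RPE against IPE, with all genes in the bottom row. In the CBPE panels the red bar of the leukocyte genes reaches 45.9% against RPE and 51.4% against IPE, with no blue bar, and the endothelial markers reach 58.3% against RPE.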

How the data were processed

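RNA of 3 primary cultures was measured on 1 biotin-labelled array each, from 1 µg of total RNA made into labelled RNA with Affymetrix reagents, per the labels' protocols. The authors deposited linear intensity values for 45101 probe sets on each array, 64 of them controls. How probes were summarised is not stated in the labels. A 2% trimmed mean came to 100.001 on every array, and this scaling was kept. Symbols came from a platform annotation of 2016, updated through gene identifiers to RefSeq's GRCm38.p6 table: 34958 probe sets had 1 gene, 932 had several and stayed unnamed, and 9160 were not listed.

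Floors at the 50th percentile, the probe set choice, the 2-fold rule and the counts were computed with Python 3.11.15, numpy 2.4.6 and pandas 2.3.3, and the counting was tested on simulated data. No p-value, SD or standard error between cultures can be given. The listed genes, their 11 roles and the 12 other lists were chosen with earlier results of these data known. All listed genes are named. From each other list, up to 3 genes past 2-fold in a comparison are named, by mean signal. Csf1, Krt7, Krt8, Krt19, Pecam1, Cdh5, Mpo and Elane were added after their values were seen. So were Kdr, Eng, Plvap, Vwf, Myh11, Des and Pdgfra. Alternatives varied the floor, the scaling, the probe set choice and the fold. Coordinates are given for printed promoter windows only.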

Additional observations from a re-analysis of the deposited data

How the results depend on the processing

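Under each of the 9 alternatives tried, more of the 37 genes were higher than lower in CBPE against both other cultures, and RPE exceeded CBPE by 2-fold in none. Of the 17 genes higher in CBPE than in RPE, 4 (Ctss, Lyz2, Plac8 and Tyrobp) kept the call under every alternative, and 11 under every one but the fixed floor. Of the 19 higher than in IPE, 3 (Lyz2, Plac8 and Tyrobp) and 9 did. With a fixed floor of 100, the genes above it numbered 13 in CBPE, 5 in RPE and 4 in IPE, 5 genes were higher in CBPE than in RPE and 6 than in IPE, against IPE 0 were higher and 0 lower in RPE (0.841%, 4.08%, 3.48% and 3.31% of all genes), and the medians of both CBPE comparisons were 0, since most signals lie under that floor. Of all 18194 genes, 6002 were above 100 in both CBPE and RPE, 5854 in both CBPE and IPE and 6009 in both RPE and IPE. With the floor at the 60th percentile, 8 genes were above it in RPE and 8 in IPE, 1 was higher in RPE than in IPE (5.31% of all genes), and the medians were 0.49 for CBPE minus RPE, 0.49 for CBPE minus IPE and -0.109 for RPE minus IPE. At that floor 9589, 9336 and 9395 of all genes were above both floors in the same 3 comparisons. The share of all genes above these 2 floors on each single array was not computed. Scaling to equal hybridisation controls moved the median of all genes above both floors to -0.74, -1.40 and -0.68, in the same 3 comparisons, and equal medians moved it to -0.06, -0.29 and -0.24. With equal hybridisation controls the medians of the 37 genes were 0.21, -0.32 and -0.43, against IPE 11 genes were higher and 2 lower in CBPE, and 0 higher and 3 lower in RPE. Of those 2, Aif1 was above the floor in CBPE alone, so its call came from the IPE floor; an alternative chosen after seeing the data, which required the brighter array to be above its own floor, gave 11 and 1 in CBPE and 0 and 3 in RPE. The floors themselves then differed by -0.68, -1.11 and -0.43, values that genes under both floors take in the medians. The CBPE minus IPE difference of Arhgdib was -0.32, and that of Msr1, under the IPE floor, was a lower bound of -0.22. The mean of all probe sets gave a CBPE minus RPE median of 0.50 and 1 gene higher in RPE than in IPE (4.76% of all genes). Leaving out probe sets that can match several transcripts or variants left 35 genes and a CBPE minus RPE median of 0.47. At 3-fold, 0 genes were higher in RPE than in IPE (2.13% of all genes). The cause of these shifts was not tested. Of 310 values of single-gene differences past 2-fold as reported, 1 per gene, comparison and alternative, 2 changed sign, the Arhgdib difference and the Msr1 bound above. Of 572 values of differences within 2-fold, 118 did. These include genes under the floor on both arrays, whose value is only the difference of the floors. The 2 counts therefore do not compare how stable the single genes are. No paired analysis was possible because each culture has 1 array.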

Other observations

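Genes of leukocytes other than macrophages were mostly under the floor, which 65.5% of all genes exceeded in CBPE, 64.0% in RPE and 63.1% in IPE. Over all genes, 3.01% were higher in CBPE than in RPE, 8.32% higher than in IPE and 8.84% lower than in IPE. Of 19 measured lymphocyte genes, 6 were above it in CBPE, 4 in RPE and 2 in IPE, none was past 2-fold higher in CBPE against either other culture, and 1 was lower in CBPE than in IPE: Zap70, a T cell kinase, at 38.6 in CBPE, 75.8 in RPE and 92.3 in IPE. Of 16 granulocyte and mast cell genes, 3 were above the floor in CBPE, 3 in RPE and 2 in IPE. Camp, the cathelicidin antimicrobial peptide gene, was at 303.1 in CBPE, 96.9 in RPE and 6.2 in IPE, 3.13-fold and at least 20.9-fold higher in CBPE. S100a8, a calcium-binding protein of neutrophils and monocytes, was at 58.5, 22.8 and 34, while the neutrophil proteinase gene Prtn3 was brightest in IPE, at 21.2 in CBPE, 2.5 in RPE and 59.1 in IPE. The granulocyte genes Mpo and Elane were under the floor on all 3 arrays.

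Of 14 measured dendritic cell and MHC class II genes, none was past 2-fold higher in CBPE against RPE or IPE (3.01% and 8.32% of all genes). In this list 1 gene was lower in CBPE than in RPE (2.65% of all genes). It was Cd74, the invariant chain, above the floor in RPE and IPE only, at 16.6 in CBPE, 42.4 in RPE and 15.1 in IPE. Of 8 measured erythroid and platelet genes, Pf4, a chemokine of platelets that mouse macrophages also make, was at 78.9 in CBPE, 22.6 in RPE and 18.3 in IPE, 3.49-fold and 4.31-fold higher in CBPE.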
